A study of Mus musculus with 36 samples.

Results

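B cells recognise antigen through a surface immunoglobulin that signals through the paired chains Cd79a and Cd79b. Src-family kinases and Syk phosphorylate those chains, the adaptor Blnk links them to Btk and Plcg2, and co-receptors such as Cd22 and Cd72 set the threshold of the signal. Pax5, Ebf1 and Spib are transcription factors that keep the B cell programme, and Tnfrsf13c, the receptor of the survival factor BAFF, keeps mature B cells alive. In a lymph node these cells lie in follicles around stromal cells that make the chemokine Cxcl13, and lymphotoxin from B cells acts on the lymphotoxin-beta receptor of that stroma.

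The genes described here are 33 genes of B cell identity and antigen receptor signalling, given as a list of symbols. No measured value enters the rule, though the list was chosen with earlier results of these data known. A probe set is a group of array probes for 1 transcript, and a probe set was counted as a member where the array annotation listed 1 of these symbols and no other gene. Of 45137 probe sets besides controls, 62 did so, and they covered 30 of the 33 genes. Lyn, Cd38 and Cd83l were not analysed here, and Faim3 is listed in the annotation under its other symbol, Fcmr. The 44 member probe sets of the first array (array A) covered 27 genes, and the 18 of the second (array B) covered 11.

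RNA came from mesenteric lymph nodes, which drain the gut, of mice that received phosphate-buffered saline (PBS) or soluble lymphotoxin-beta receptor, a decoy that takes up the receptor's ligands. The PBS group is labelled day 0, and the treated groups received the soluble receptor for 1, 2, 3, 27 or 35 days. There were 3 samples in every group on both array kinds, 36 measurements over 6 groups. The labels used here give no strain, age, sex or dose and do not say whether samples were separate animals, so the p-values rest on a spread that may be technical. All treated groups were compared with the same day 0 samples, so treatment, time and exposure to a foreign protein cannot be told apart at the later days.

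The values are intensities, the brightness of a probe set on a linear scale as the authors deposited it. The median of a single array lay between 273 and 299.5 for array A and between 149.9 and 165.2 for array B. Among the members 37 probe sets of array A and 15 of array B were bright enough to be tested (above the median of their table on at least 3 of the 18 arrays), and together they covered all 30 genes. The 10 others were dim probe sets of Fcrl1, Fcrla, Syk, Bcl11a, Ebf1, Ikzf3 and Pax5, each of which had another probe set that was tested. Changes are log2 differences from a limma fit to all tested probe sets of a table, and a probe set was called where its p-value, adjusted by the Benjamini-Hochberg method over the whole table, was under 0.05. Where a gene had several tested probe sets, the brightest stands for it, from array A where possible. The number of arrays limits the precision.

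Samples did not all stand alike. On array A the small respiratory chain subunits, 45 short and abundant transcripts of which none is a B cell gene, had per-sample medians between -0.02 and 0.08 (log2, against the PBS mean) in all PBS, day 1 and day 2 samples. In the day 3 samples these medians were -0.02, 0.04 and -0.42, at day 27 they were -0.30, -0.15 and -0.44, and at day 35 they were -0.39, -0.60 and -0.45. Array weights score how far a sample lies from its group. On array A they were lowest for day 3 sample 3 (0.269), day 27 sample 2 (0.232) and day 35 sample 3 (0.287). On array B these samples had 0.503, 1.1 and 0.823, and the lowest was day 1 sample 3 (0.315). The 3 samples were thus picked by their distance from their groups in these same data. Leaving them out narrows the spread and adds calls, so such calls are no separate support. Calls that begin or end when these 3 samples are left out are given beside the gene or the comparison they touch.

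During the first 3 days none of the B cell genes was called, while part of the follicle stroma and venule genes fell. The stroma and venule lists were chosen with earlier results of these data known, so this contrast is a description and not a test. Of 10 tested stroma genes 0 were called at day 1, 4 were lower at day 2 and 4 at day 3, with changes from -1.16 to 0.33 at day 2 and from -1.32 to 0.27 at day 3. Of 6 tested venule genes 0, 2 and 3 were lower on these days, and the others ranged up to -0.016 at day 2 and 0.0057 at day 3. Mfge8, a protein secreted by follicular dendritic cells, had an intensity of 3449 ± 149 (mean ± SD, n = 3) with PBS, 1548 ± 15.7 at day 2 and 1380.2 ± 66.6 at day 3, a change of -1.16 and -1.32 (log2; limma adjusted p = 2.81e-05 and 1.59e-06). Cxcl13 went from 1457 ± 102 to 913 ± 10.8 at day 3 (-0.67, adjusted p = 0.00118), Madcam1, an adhesion ligand of gut-homing lymphocytes, from 732 ± 97.3 to 424 ± 47.2 (-0.78, adjusted p = 0.000609), and Glycam1, a venule mucin, from 5807 ± 727 to 1954 ± 303 (-1.58, adjusted p = 6.93e-07). At day 1 none of these 4 was called, with Mfge8 at -0.63 and an adjusted p of 0.0557.

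In those days 0 of 37 member probe sets were called in limma on array A at day 1, at day 2 and at day 3, where 0.0164%, 0.114% and 0.556% of all 12231 tested probe sets were. On array B 0 of 15 were called on each day, against 0.00799%, 0.024% and 0.0799% of 12516. An unadjusted p under 0.05 was found for 2, 0 and 3 members on array A and for 1, 2 and 1 on array B, where all tested probe sets gave 3.36%, 5.52% and 10.1% on array A and 7.19%, 7.05% and 8.28% on array B. The median change over the 30 genes was 0.06 at day 1, -0.02 at day 2 and 0.04 at day 3, beside 0.02, 0.03 and 0.02 over all probe sets of array A. Single genes ran from -0.20 to 0.22 at day 1, from -0.17 to 0.13 at day 2 and from -0.32 to 0.18 at day 3. The 95% confidence intervals bound what could have been missed, since over the 30 genes the lowest lower limit was -0.65 and the highest upper limit 0.43, both of single genes. For the mean of days 1 to 3 against PBS, 0 of 37 and 0 of 15 were called (background 0.155% and 0.032%), with 3 and 2 at an unadjusted p under 0.05 (background 6.5% and 10.7%). In such whole-node RNA, fewer cells of a type and less RNA per cell cannot be told apart.

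**Figure D1:**
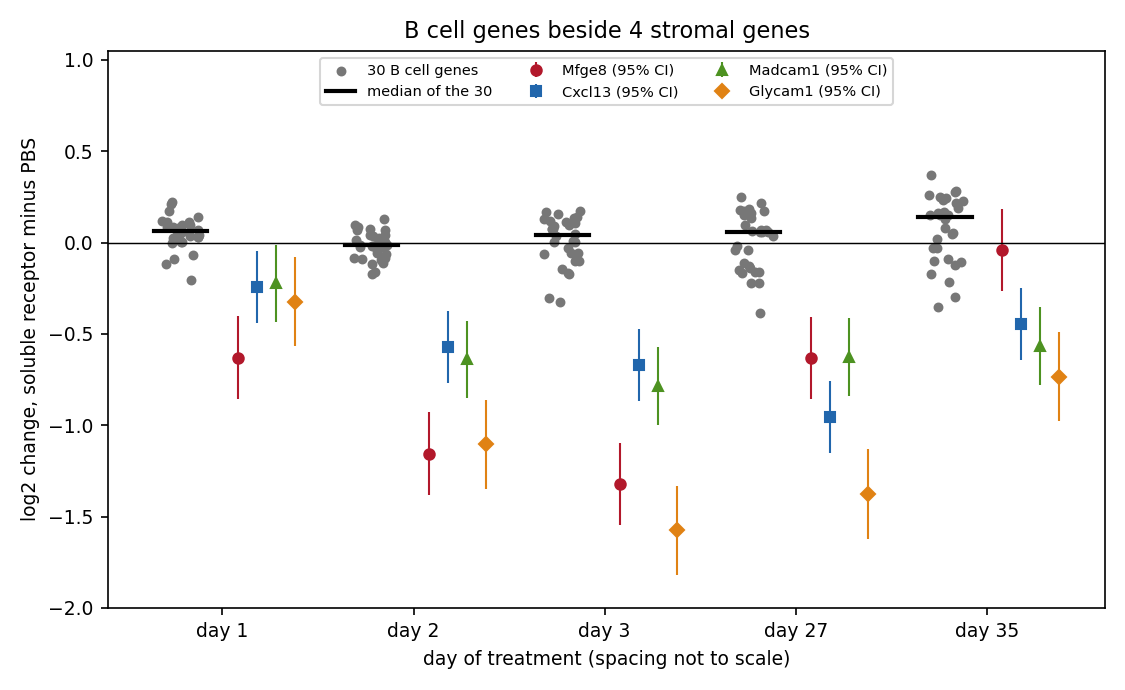
log2 change from PBS (vertical axis) on each day of treatment (horizontal axis, not to scale) for the 30 B cell genes (grey points, 1 per gene, with their median as a black bar) and for Mfge8, Cxcl13, Madcam1 and Glycam1 (coloured, with 95% confidence intervals of the fit). The medians of the B cell genes stay between -0.02 and 0.14, while Glycam1 reaches -1.58 and Mfge8 -1.32 at day 3. The coloured genes were chosen with earlier results of these data known.

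At the late days few members were called, in shares close to those of all tested probe sets. At day 27 the only call was 1 probe set on array A that was lower (Cd79a), 2.7% of the members, where 3.18% of all tested probe sets were called and 2.6% were called lower. Array B gave 0 beside 0.328%. At day 35 array A gave 2 higher (Tnfrsf13b and Ralgps2) and 1 lower (Cd79a), 8.11% beside 7.36% of all tested (1.77% higher, 5.58% lower). Array B gave 0 beside 3.59%. With the replicate number as a block array B gave 3 of 15, beside 1327 of 12516 tested. At an unadjusted p under 0.05 the counts on arrays A and B were 5 and 1 at day 27 (background 18.4% and 11.3%), and 16 and 4 at day 35 (background 22.8% and 19.9%). The median over the 30 genes was 0.06 at day 27 and 0.14 at day 35, beside 0.05 and 0.03 over all probe sets of array A. Without the 3 samples of low weight, 4 members of array A were called at day 27 and 10 at day 35. Calls among all 12231 tested probe sets rose too, from 389 to 1432 at day 27 and from 900 to 1831 at day 35. Leaving out day 27 sample 2 alone gave 2 at day 27, beside 714 of all tested. Leaving out PBS sample 2, PBS sample 3, day 35 sample 1 or day 35 sample 2 gave 1 at day 35. There 481, 395, 760 and 333 of all tested were called. With the mean of the small subunits as a covariate there were 5 at day 27 and 0 at day 35, beside 446 and 10 of all tested. The medians over members were then -0.10 and -0.10.

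**Figure D2:**
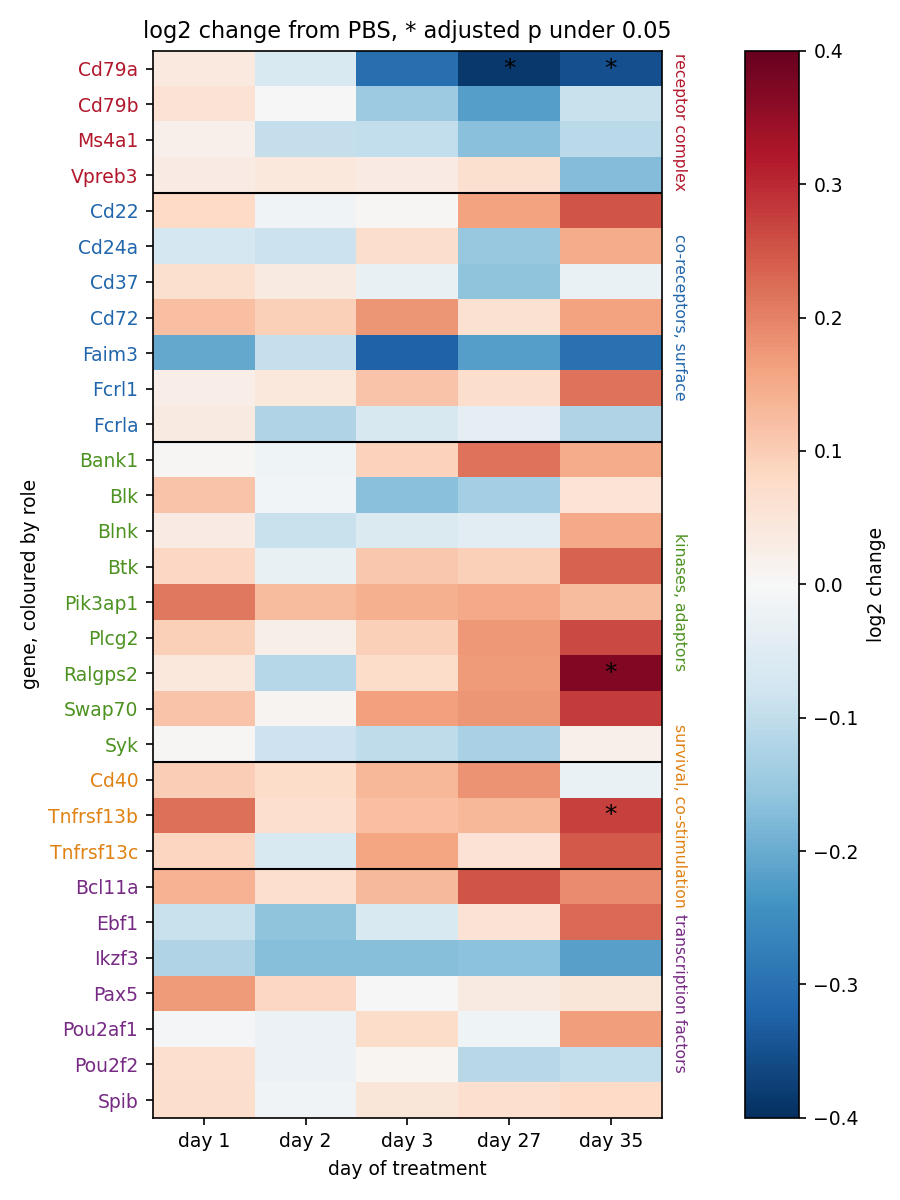
log2 change from PBS of the 30 B cell genes (rows, brightest tested probe set, grouped by role) on each day (columns), from blue for lower to red for higher, with a star where the adjusted p was under 0.05. Stars appear for Cd79a at days 27 and 35 and for Tnfrsf13b and Ralgps2 at day 35, and the first 3 columns hold none.

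The role that held Cd79a, Cd79b, Ms4a1 and Vpreb3 had the lowest late medians, -0.19 at day 27 and -0.14 at day 35 over 4 genes. Of these only Cd79a and Cd79b are the signalling chains of the receptor. On the brightest probe sets all 4 lay below 0 at day 35, and 1 of 4 (Cd79a) was called on each of these days. A dimmer probe set of Ms4a1 lay above 0 at day 35. Cd79a, the signalling chain that every B cell receptor needs, had intensities of 3459, 3424 and 3342 in the PBS samples, 3555, 3772 and 3196 at day 1 and 3313, 3265 and 3231 at day 2. They were 3017, 2666 and 2629 at day 3, 2654, 2785 and 2405 at day 27 and 2627, 2604 and 2783 at day 35. Every sample of days 2, 3, 27 and 35 lay below every PBS sample, whereas the day 1 samples lay on both sides. Cd79a fell by 23.4% at day 27 (log2 -0.38, SE 0.072, adjusted p = 0.00594) and fell by 21.7% at day 35 (log2 -0.35, SE 0.072, adjusted p = 0.00594). At day 3 its change was -0.30 with an adjusted p of 0.0729, and at day 2 it was -0.060 with an adjusted p of 0.983.

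The small subunits were lower in the same late samples. Day 3 samples 1 and 2, whose subunit medians were -0.02 and 0.04, read 3017 and 2666 for Cd79a, below the lowest PBS sample at 3342. With the subunit mean as a covariate Cd79a was at -0.30 at day 27 (adjusted p = 0.0626) and at -0.22 at day 35 (adjusted p = 0.329), and in a fit of only day 27 and PBS the adjusted p was 0.0517. The calls of days 27 and 35 held when each of the 6 samples compared was left out in turn.

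Cd79b, the partner chain, read 1938, 1909 and 2235 with PBS, 1737, 1615 and 1864 at day 27 and 1862, 1837 and 2009 at day 35. Its day 27 samples all lay below the PBS samples, by -0.22 (95% interval -0.40 to -0.038, adjusted p = 0.182), and its group means were 2027 with PBS, 2114 at day 1, 2024 at day 2, 1834 at day 3, 1739 at day 27 and 1903 at day 35 (SD 19.3 to 205). Ms4a1, the surface protein CD20, had means of 2565 with PBS, 2602 at day 1, 2398 at day 2, 2392 at day 3, 2295 at day 27 and 2393 at day 35 (SD 29.2 to 370.4). Its brightest probe set stood at -0.11 at day 35 while its dimmer one stood at 0.36, and neither was called, so the probe sets of Ms4a1 disagree in direction. Without the 3 samples of low weight the dimmer one was called at 0.37 (adjusted p = 0.0497). Vpreb3, an endoplasmic reticulum protein related to the surrogate light chain, stood at 0.064 at day 27 and -0.17 at day 35.

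The co-receptors and other surface proteins comprised 7 tested genes, of which 0 passed on any of the 5 days, and whose medians were -0.04 at day 27 and 0.15 at day 35. Cd22, a sialic acid receptor that dampens receptor signals, read 2482, 2614 and 2517 with PBS, 2676, 2797 and 2572 at day 1, 2547, 2507 and 2483 at day 2, 2592, 2299 and 2765 at day 3, 2874, 2495 and 3177 at day 27 and 2863, 3111 and 3090.3 at day 35. All day 35 samples exceeded all PBS samples, by 0.25 (SE 0.081), with an adjusted p of 0.0661. Day 35 of Cd22 was called with quantile normalization (adjusted p = 0.017), with array weights (0.0108), without the 3 samples of low weight (0.0272) and in a fit of only day 35 and PBS (0.0453), and not in the other 7 of 11 alternatives, over all of which its value ran from -0.066 to 0.30. At day 27 Cd22 was called without the 3 samples (0.25, adjusted p = 0.0223). At day 35 a dimmer probe set of Cd22 stood at 0.15 and its groups overlapped. At day 27 the mean of that probe set was 843, beside 862 with PBS. Cd72, another inhibitory co-receptor, had means of 1232 with PBS, 1339 at day 1, 1318 at day 2, 1392 at day 3, 1285 at day 27 and 1380.2 at day 35 (SD 39.1 to 111). Its largest change was 0.18 at day 3 (adjusted p = 0.406), and without the 3 samples of low weight it was called at day 35 (0.22, adjusted p = 0.0311).

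Cd37, a tetraspanin of mature B cells, had means of 2285 with PBS, 2379.8 at day 1, 2339 at day 2, 2230.1 at day 3, 2036 at day 27 and 2236 at day 35 (SD 34.9 to 237), with a change of -0.16 at day 27 (adjusted p = 0.239). Cd24a, a glycoprotein carried by B cells and many other cells, had means of 1499 with PBS, 1447 at day 1, 1413 at day 2, 1583 at day 3, 1350.4 at day 27 and 1662 at day 35 (SD 112 to 310.4). Its 3 tested probe sets stood between 0.11 and 0.27 at day 35, all above 0. Faim3, an Fc receptor for immunoglobulin M measured on array B only, read 2149, 2480.2 and 2439 with PBS and 2334, 1588 and 1789.9 at day 3. That change of -0.32 was the lowest of all members at day 3, yet day 3 sample 1 lay within the PBS range and the adjusted p was 0.598. Fcrl1 and Fcrla, relatives of the Fc receptors, stood at 0.22 and -0.12 at day 35.

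**Figure D3:**
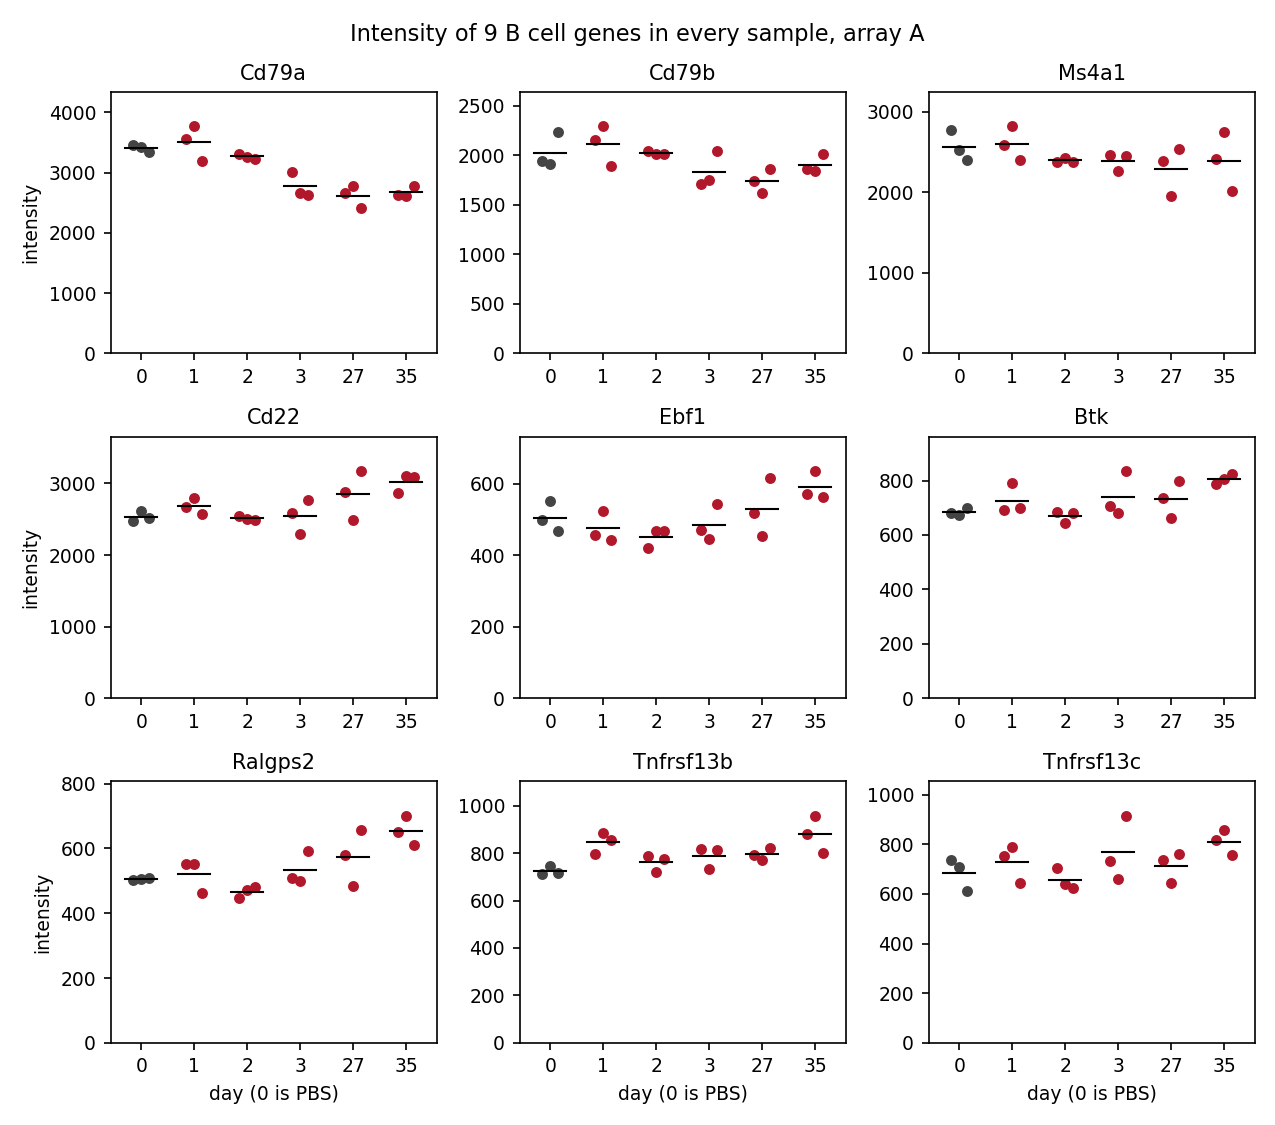
Intensity on array A (vertical axes, linear from 0) of 9 B cell genes in every sample by day (horizontal axes, 0 is PBS), with PBS in grey, soluble receptor in red and a bar at each group mean. Cd79a is lower in all samples of days 2, 3, 27 and 35 than with PBS. Cd22, Btk, Ralgps2, Tnfrsf13b and Tnfrsf13c are higher in all day 35 samples than in any PBS sample, as is Ebf1.

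Kinases, adaptors and other signalling proteins such as Ralgps2 and Swap70 made up 9 tested genes. On the brightest probe sets 9 of 9 lay above 0 at day 35, with a median of 0.15, and only Ralgps2 was called. All 9 lay above 0 at day 1 too. Of all 12231 tested probe sets of array A, 7093 lay above 0 at day 35. Ralgps2, a guanine exchange factor of Ral, read 503, 504 and 508 with PBS, 553, 552 and 461 at day 1, 447, 472 and 481 at day 2, 508, 498 and 592 at day 3, 579, 483 and 656 at day 27 and 649.8, 701 and 609.9 at day 35. All day 35 samples were above the PBS samples, which differed little among themselves, whereas day 27 sample 2 was below them. Ralgps2 rose by 0.37 at day 35 (SE 0.10, adjusted p = 0.0309), and its other 2 probe sets stood at 0.29 and 0.23, not called. Without the 3 samples of low weight Ralgps2 was called at day 27 too (0.29, adjusted p = 0.0322), and the first of the other probe sets at day 35 (0.35, adjusted p = 0.0238). The call held without day 35 sample 3 and ended without each of the other 5 samples (adjusted p = 0.0663 to 0.147), without a filter on dim probe sets (0.0756) and with arrays set to a common median (0.0549). With the subunit covariate the value of Ralgps2 was -0.025 (adjusted p = 0.937).

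Plcg2, the phospholipase that releases calcium, read 1029.7, 994 and 919.8 with PBS and 1186, 1244 and 1102 at day 35. The groups did not overlap, and the difference was 0.26 (adjusted p = 0.0601). Btk, the kinase that activates it, read 679.7, 675 and 698 and 788, 806 and 822, again without overlap, a difference of 0.24 (adjusted p = 0.0947). Without the 3 samples of low weight both were called, Plcg2 at 0.31 (adjusted p = 0.0136) and Btk at 0.22 (adjusted p = 0.042). Over all days the means of Btk were 684 with PBS, 726 at day 1, 669.9 at day 2, 741 at day 3, 732 at day 27 and 805 at day 35 (SD 12 to 83.3). Swap70, a cytoskeletal regulator of B cells, and Blnk stood at 0.28 and 0.15 at day 35, with adjusted p-values of 0.182 and 0.495. A second probe set of Swap70, on array B, stood at 0.010. The means of Blnk were 1049.9 with PBS, 1082 at day 1, 988 at day 2, 1014 at day 3, 1025 at day 27 and 1168 at day 35 (SD 58.0 to 180.1).

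Blk, a Src-family kinase of B cells, did not pass on any day. It read 829, 842 and 813 with PBS, 902, 906 and 881 at day 1, 838, 836 and 790.4 at day 2, 745, 698 and 772 at day 3, 721, 735 and 805 at day 27 and 848, 915 and 819.7 at day 35. All samples of days 3 and 27 lay below the PBS samples, by -0.17 and -0.14, and those of day 1 lay above them, by 0.11, and none of these passed (adjusted p = 0.398, 0.273 and 0.998). Syk had means of 1169.6 with PBS, 1173 at day 1, 1104 at day 2, 1096 at day 3, 1075 at day 27 and 1189 at day 35 (SD 20.4 to 160.1). Its 3 tested probe sets stood at -0.13, -0.25 and -0.24 at day 27, not called, and with the subunit covariate all 3 were called, at -0.42, -0.62 and -0.69. At day 35 the brightest stood at 0.022, while the other 2 had means of 675 and 464, below their PBS means of 692 and 548. Pik3ap1, an adaptor for phosphoinositide 3-kinase, stood between 0.13 and 0.21 on array A over the 5 days, and between -0.18 and 0.083 on array B. Bank1, a scaffold measured on array B, reached 0.22 at day 27 (adjusted p = 0.515).

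Counts of probe sets whose groups did not overlap differed between the arrays at day 35. On array A 13 of 37 member probe sets were higher in all treated samples than in any PBS sample and 2 were lower, 35.1% and 5.41% beside 15.9% and 13.2% of all probe sets tested. On array B 1 of 15 was higher and 4 were lower, 6.67% and 26.7% beside 15.4% and 17%. The day 35 samples of array A also had subunit medians of -0.39 to -0.60, and the part of these in the overlap counts was not tested.

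The receptors of survival and help signals were 3 genes, with a median of 0.24 at day 35. Tnfrsf13b, the receptor TACI, read 714, 747 and 715 with PBS, 798, 884 and 856 at day 1, 788, 721 and 773 at day 2, 817, 735 and 815 at day 3, 794, 772 and 822 at day 27 and 880.0, 959 and 799.6 at day 35. All samples of days 1, 27 and 35 were above the PBS samples, while sample 2 of day 2 and sample 2 of day 3 lay within the PBS range. Tnfrsf13b rose by 20.9% at day 35 (log2 0.27, SE 0.074, adjusted p = 0.0297), and at day 1 the difference of 0.22 had an adjusted p of 0.998. The call held without day 35 sample 3 and ended without each of the other 5 samples (adjusted p = 0.0606 to 0.173), in a fit of only day 35 and PBS (0.0864) and with arrays set to a common median (0.0538). With the subunit covariate Tnfrsf13b stood at 0.14 (adjusted p = 0.53).

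Tnfrsf13c, the BAFF receptor, had means of 686 with PBS, 728 at day 1, 656 at day 2, 770.0 at day 3, 713 at day 27 and 811 at day 35 (SD 42.0 to 131). At day 35 it stood at 0.24 (95% interval 0.0093 to 0.48, adjusted p = 0.203), and without the 3 samples of low weight it was called (0.29, adjusted p = 0.0497). Cd40, the receptor for help from T cells, had means of 550.4 with PBS, 586 at day 1, 577 at day 2, 602 at day 3, 622 at day 27 and 542 at day 35 on array A (SD 11.4 to 82.2). Its probe sets disagreed at day 35, at -0.028 and -0.017 on array A and -0.39 on array B, where PBS samples read 272, 281 and 268 and day 35 samples 214, 233 and 184. The array B groups did not overlap, and the adjusted p there was 0.0567. In a fit of only day 35 and PBS this probe set of Cd40 was called (adjusted p = 0.0228). So it was with array weights (0.0139) and with the replicate number as a block (0.019).

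The transcription factors comprised 7 genes, of which 0 passed against PBS on any day, with medians of 0.04 at day 27 and 0.08 at day 35. Ebf1, which opens the B cell programme, read 499, 550.0 and 466 with PBS, 457, 523 and 443 at day 1, 420.3, 468 and 466 at day 2, 469, 444 and 542 at day 3, 517, 454 and 615 at day 27 and 572, 636 and 563 at day 35, and its array A change of 0.23 at day 35 had an adjusted p of 0.21. Its array B probe set stood at -0.042 with a wide spread. Pax5, measured on array B, had means of 258 with PBS, 294 at day 1, 274 at day 2, 259 at day 3, 265 at day 27 and 267 at day 35 (SD 5.48 to 60.8). Spib had means of 1668 with PBS, 1747 at day 1, 1648 at day 2, 1721 at day 3, 1743 at day 27 and 1758 at day 35 (SD 14.3 to 149) and stood between -0.013 and 0.078 over the 5 days.

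Pou2af1, a coactivator of octamer-binding factors, had means of 1433 with PBS, 1427 at day 1, 1403 at day 2, 1505 at day 3, 1414 at day 27 and 1608 at day 35 (SD 51.5 to 194). Pou2f2, an octamer-binding factor itself, stood at -0.10 and -0.076 at day 35 on array A and at -0.27 on array B (adjusted p = 0.0959). Bcl11a, a zinc finger factor needed for early B cells, showed probe sets that went both ways. The brightest on array A was at 0.25 at day 27 (adjusted p = 0.0714) with all day 27 samples above PBS, while the 5 on array B ranged from -0.27 to 0.089 on that day. The array A value of Bcl11a was called without the 3 samples of low weight (0.31, adjusted p = 0.0143). Ikzf3, a zinc finger factor of lymphocytes, stood at -0.22 and -0.23 at day 35 on its 2 tested probe sets.

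Between the late and the early days 4 genes of array A differed. For the mean of days 27 and 35 against the mean of days 1 to 3, 3 of 37 member probe sets were higher and 1 lower, 10.8% in all beside 15.4% of all tested (4.98% higher, 10.4% lower), and 0 of 15 were called on array B beside 1.66%. An unadjusted p under 0.05 was found for 9 and 3 (background 29.4% and 13.9%). Cd79a fell by 0.26 on the log2 scale (SE 0.046, adjusted p = 0.000816), Ralgps2 rose by 0.27 (SE 0.065, adjusted p = 0.00826), Ebf1 by 0.25 (SE 0.068, adjusted p = 0.0196) and Cd22 by 0.18 (SE 0.052, adjusted p = 0.0229). In none of the 4 were all late samples on 1 side of all early samples. With the subunit covariate Cd79a was at -0.16 (adjusted p = 0.268), and Ralgps2, Ebf1 and Cd22 turned to -0.037, -0.049 and -0.064 (adjusted p = 0.842, 0.811 and 0.62). Without the 3 samples of low weight 16 member probe sets were called, beside 3211 of all tested (1880 in the reported fit). Those of Cd79a and Pou2f2 were lower, and those of Ralgps2, Ebf1, Cd22, Plcg2, Btk, Swap70, Tnfrsf13c, Bcl11a, Fcrl1 and Ms4a1 were higher. There were 9 member calls without day 27 sample 2 alone, and 2 without day 27 sample 3 or without day 35 sample 2, where the calls of Ebf1 and Cd22 ended. Of all tested 2419, 1309 and 1292 were called in these fits. Between day 35 and day 27, 0 members were called on either array, as was 0% of all probe sets, with 6 and 1 at an unadjusted p under 0.05 (background 6.66% and 2.83%).

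**Figure D4:**
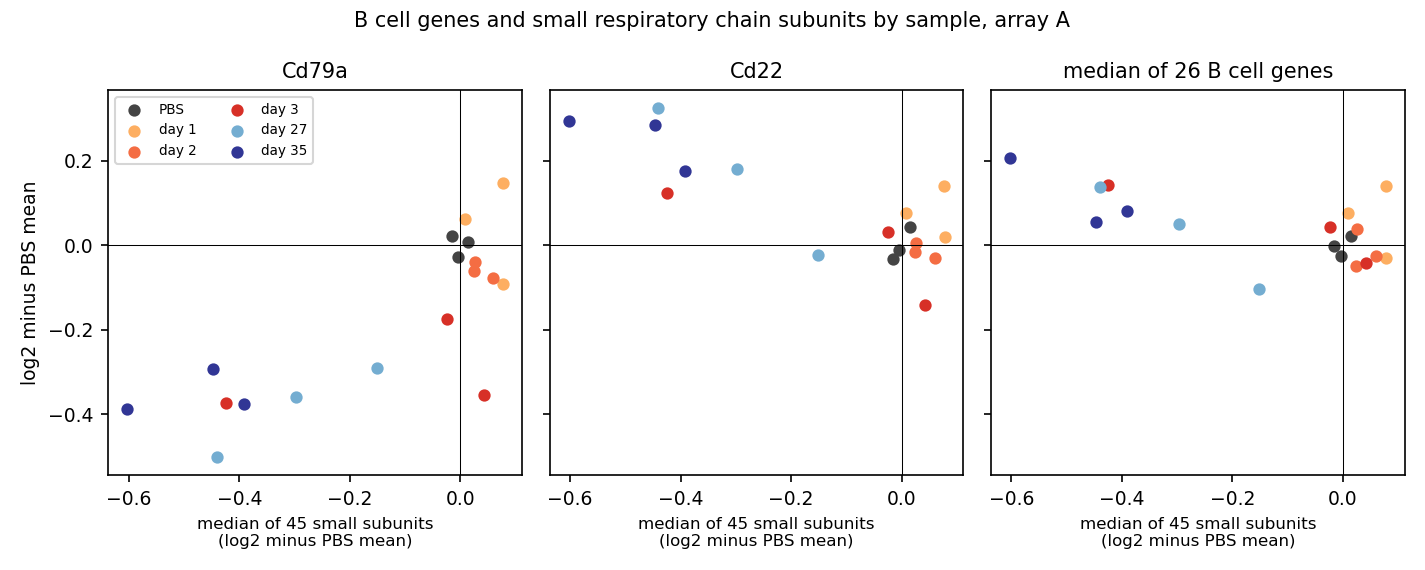
log2 value minus the PBS mean (vertical axes) of Cd79a, of Cd22 and of the median over the 26 B cell genes of array A, against the median of 45 small respiratory chain subunits on the same scale (horizontal axes), 1 point per array A sample, coloured by day. All 6 samples of days 27 and 35 lie left of the PBS samples, and so does day 3 sample 3, and the Cd79a points of the other day 3 samples lie below PBS at subunit values near 0.

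Markers of other cells and the small subunits were counted in the same samples. Of all tested probe sets of array A, 3.18% were called at day 27 and 7.36% at day 35. Of the 45 small subunits 0 were called at days 1, 2 and 3, while 10 were called lower at day 27 (median -0.29) and 37 at day 35 (median -0.48). At day 3, 39 of 45 stood below 0 (median -0.13), and 7 of 45 had an unadjusted p under 0.05. Their summed intensity was 77700 to 80410 with PBS, 60960 to 81100 at day 3, 60380 to 71710 at day 27 and 54100 to 62430 at day 35. Of 20 tested T cell genes 0 passed on days 1 to 3, and Lat, an adaptor of the T cell receptor, was lower at day 27 (-0.31, adjusted p = 0.0342) and day 35 (-0.29, adjusted p = 0.027). The summed intensity of the 18 on array A was 17270 to 18050 with PBS, 16540 to 18240 at day 27 and 16940 to 17900 at day 35, so the ranges overlapped.

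Of 9 tested plasma cell genes only Igha, the heavy chain of immunoglobulin A, was called on any day, at 0.60 at day 27 (adjusted p = 0.00215) and 0.46 at day 35 (adjusted p = 0.00852). Mzb1, a chaperone of antibody-secreting cells measured on array B, stood at -0.58 (adjusted p = 0.241) and -0.60 (adjusted p = 0.0953), and the medians of the list were 0.11 and 0.02. The sum over the 8 on array A, Igha among them, was 13890 to 16210 with PBS, 18440 to 20100 at day 27 and 16930 to 19000 at day 35. Of 17 macrophage genes 3 were called higher and 1 lower at day 3, with 3 higher and 2 lower at day 27 and 1 of each at day 35. On these days 0.556%, 3.18% and 7.36% of all tested probe sets of array A were called, and 0.0799%, 0.328% and 3.59% of array B. The 3 higher at day 27 stood between 0.34 and 0.78. The 2 lower at day 27 were Lyz2, a lysozyme (-0.56, adjusted p = 7.29e-05), and Timd4, a receptor for phosphatidylserine on array B (-0.92, adjusted p = 0.0111). The sum over the 16 on array A, which leaves out Timd4, was 25580 to 26070 with PBS, 26730 to 26990 at day 3, 23390 to 27880 at day 27 and 23990 to 28390 at day 35. No gene of these lists on array A had a value under the floor. What the markers of other cells contribute to the values of the B cell genes was not tested, since only the small subunits entered a fit as a covariate.

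Calls in the wider receptor pathway came in shares near those of all tested probe sets on array A. Of 49 further genes (co-receptors, phosphatases, lipid kinases and their targets, immunoglobulin chains), 41 were tested, and 0 were called on days 1, 2, 3 and 27. An unadjusted p under 0.05 in limma was found for 1, 3, 3 and 12 of the 41 on these days. At day 35 it was found for 12 as well. The background at day 27 was 18.4% (array A) and 11.3% (array B), and at day 35 it was 22.8% and 19.9%. At this looser limit 12 of 41 was thus a larger share than the background on both late days. At day 35, 2 of these genes were called higher, Pik3cg, a catalytic subunit of phosphoinositide 3-kinase (0.22, SE 0.062, adjusted p = 0.0359), and Cd5, an inhibitory receptor of T cells and some B cells (0.31, SE 0.089, adjusted p = 0.0424). Grap, an adaptor of the Grb2 family, was lower on array B (-0.49, SE 0.089, adjusted p = 0.00479). These were 2 of 35 genes on array A, beside 7.36% of all probe sets, and 1 of 6 on array B, beside 3.59%. Late against early, Pik3cg was higher (0.15, adjusted p = 0.0163), and the kinase Akt1 (-0.29, adjusted p = 0.00169), the adaptor Dok3 (-0.28, adjusted p = 0.00163), Grap (-0.30, adjusted p = 0.00808) and H2-DMa, a peptide loader of class II molecules (-0.23, adjusted p = 0.00609), were lower. Of these 5 calls 4 were on array A, beside 15.4% of all probe sets, and 1 on array B, beside 1.66%. The medians of this list lay between 0.03 and 0.06 on the 5 days.

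The spread among samples of a group was no tighter for B cell genes than elsewhere. The median within-group SD (log2) was 0.12 over the 37 member probe sets of array A beside 0.11 over all tested, and 0.17 over the 15 of array B beside 0.14.

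Promoters of 4 called genes are shown because Cd79a went the other way from Tnfrsf13b, Ralgps2 and Cd22 late in treatment. Each run is the 250 bases before the gene's start in RefSeq (GRCm38.p6), 5′ to 3′ on the gene's strand, with motif matches in capitals. Cd79a lies at chr7:24897247-24897496 on the plus strand, Tnfrsf13b at chr11:61126505-61126754 on the plus strand, Ralgps2 (the first of 2 listed starts) at chr1:156939627-156939876 on the minus strand and Cd22 at chr7:30879029-30879278 on the minus strand.
Cd79a: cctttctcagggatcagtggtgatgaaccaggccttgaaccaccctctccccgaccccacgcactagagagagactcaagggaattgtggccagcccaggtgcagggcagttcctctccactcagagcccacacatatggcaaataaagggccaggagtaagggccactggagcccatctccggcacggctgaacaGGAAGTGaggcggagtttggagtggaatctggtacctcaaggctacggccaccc
Tnfrsf13b: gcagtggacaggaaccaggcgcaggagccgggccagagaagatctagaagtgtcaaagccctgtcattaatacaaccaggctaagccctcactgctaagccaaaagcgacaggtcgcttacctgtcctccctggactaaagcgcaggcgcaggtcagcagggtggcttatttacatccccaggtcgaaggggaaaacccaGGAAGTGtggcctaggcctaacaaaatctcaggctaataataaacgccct
Ralgps2: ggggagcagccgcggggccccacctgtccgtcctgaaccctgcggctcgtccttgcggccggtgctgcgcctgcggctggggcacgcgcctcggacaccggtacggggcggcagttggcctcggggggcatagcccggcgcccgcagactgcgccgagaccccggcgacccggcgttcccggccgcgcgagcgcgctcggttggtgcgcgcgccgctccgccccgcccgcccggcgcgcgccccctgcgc
Cd22: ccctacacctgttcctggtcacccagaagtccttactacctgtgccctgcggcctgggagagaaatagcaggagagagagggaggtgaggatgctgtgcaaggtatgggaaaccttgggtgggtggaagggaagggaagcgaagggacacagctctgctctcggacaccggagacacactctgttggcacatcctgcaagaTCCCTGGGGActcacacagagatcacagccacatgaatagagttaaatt

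A set of 3 motifs was searched on both strands, and matches of different motifs do not overlap in the 4 promoters shown. They were the octamer ATTTGCAT bound by Pou2f2, the Ets core GGAAGTG of the family to which Spib belongs, and the palindrome of Ebf1, TCCC and GGGA with any 2 bases between. The Ets core begins 54 bases before the start of Cd79a and 50 before that of Tnfrsf13b, and the palindrome 49 before that of Cd22. Of 32851 promoters 1.6% held the octamer, 8.55% the Ets core and 0.779% the palindrome. RefSeq listed 28 promoters for 25 of the member genes, and 2 held the octamer (Blnk and Vpreb3), 4 the Ets core (Bank1, Cd79a, Pik3ap1 and Tnfrsf13b) and 1 the palindrome (Cd22). Ralgps2 and Ebf1, the other called genes, held none of the 3 in these windows. A match is a description of letters only, and sites that differ from these exact letters were not counted.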

How the data were processed

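The deposited values are 1 intensity for each probe set on each array, on a linear scale, and the reported fits did not rescale them. The sources used here do not state how the authors made these intensities (software, background, scaling). Titles and descriptions in the labels gave the groups, since the source label of a day 1 sample on array B is an unrelated phrase. The platform annotation gave gene names, with 1 symbol for 20380 of the 22626 probe sets of array A and 14661 of the 22511 of array B, several for 691 and 245, and none for 1555 and 7605. Control probe sets (64 per array) were left out.

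Each table was handled apart. Intensities were floored at the table's 20th percentile (123 for array A, 76.6 for array B) and log2 transformed. A probe set was tested if it exceeded the table's median (287 or 158) on 3 or more of 18 arrays, which kept 12231 and 12516. All 6 groups entered 1 model in limma 3.58.1 (R 4.3.3), with lmFit and a trended eBayes and no covariate. A total of 8 contrasts were made. P-values are two-sided, with Benjamini-Hochberg adjustment over the tested probe sets of a table for each contrast. Simulated arrays with known changes, all larger than the member changes called in the reported fits, served to test the fit. They do not show whether changes of the size called here can be found.

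The members and the lists (other receptor pathway genes, follicle stroma, venules, T cells, macrophages, plasma cells, small respiratory subunits) were chosen with earlier results of these data known. Every group is given for members called in any contrast and for a fixed set of best-known members, called or not. Beyond members, 4 stroma and venule genes, the called pathway genes of each contrast and up to 2 genes of each other list are named. Alternatives tried were 2 other scalings, the floor, the filter, the trend, array weights, a block for replicate number, the subunit covariate, fits of fewer groups and the omission of single samples.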

Additional observations from a re-analysis of the deposited data

Results flagged for a closer look

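The change of 4 genes differed between the late days (27 and 35) and the early days (1 to 3) in a direct limma contrast of the 2 means. Cd79a stood at -0.26 (adjusted p = 0.000816), Ralgps2 at 0.27 (adjusted p = 0.00826), Ebf1 at 0.25 (adjusted p = 0.0196) and Cd22 at 0.18 (adjusted p = 0.0229), each with 9 early and 6 late samples. In this contrast 15.4% of all tested probe sets of array A were called. The small respiratory chain subunits were lower in the late samples (41 of 45 called, median -0.38), and their part in these values was not tested beyond the covariate fit.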

How the results depend on the processing

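Counts of called member probe sets stayed within 1.5 times of the reported count in 264 comparisons with an alternative and moved in 30. On array A quantile normalization gave 5 at day 35, beside 1018 of all tested. A common median gave 2 at day 27 and 1 at day 35, beside 726 and 1044. Array weights gave 1 at day 2, 3 at day 3 (Cd79a, Blk and Syk), 7 at day 27, 15 at day 35, 22 late against early and 2 between days 35 and 27. Of all tested probe sets of array A they called 536, 377, 2485, 3046, 4114 and 464 in these comparisons. On array B array weights gave 3 at day 2, 3 at day 35 and 2 late against early, beside 2298, 1432 and 505 of all tested. The estimation of the weights stopped before convergence on 1 table. Without day 3 sample 3, day 27 sample 2 and day 35 sample 3, array A gave 4 at day 27, 10 at day 35 and 16 late against early. Of all tested 1432, 1831 and 3211 were then called. Fits of only the groups compared gave 0 at day 27 on array A and 2 at day 35 on array B, beside 113 and 1191 of all tested. Leaving out single samples gave 1 to 2 at day 27, 1 to 4 at day 35 and 2 to 9 late against early on array A, and 0 to 1 late against early on array B (1 without day 1 sample 3).

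With the small-subunit mean as a covariate, run on array A, 5 were called at day 27 and 0 at day 35, beside 446 and 10 of all tested. The median over members then moved to -0.10 at day 27, -0.10 at day 35 and -0.077 late against early, by more than the SD of 0.082 among samples of a group. Ralgps2 turned to -0.025 at day 35, and late against early Ralgps2 turned to -0.037, Cd22 to -0.064 and Ebf1 to -0.049. The cause was not tested. The other 156 medians under alternatives moved by less than that SD.

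The labels number samples 1 to 3 in each group without saying that a number marks a shared animal or day. Deviations of same-numbered samples correlated with a median r of 0.019 on array A (over 0.1 in 18 of 45 pairs) and 0.37 on array B (34 of 45), where pairs with different numbers had a median of -0.098 (21 of 90). The labels do not call them pairs, so the reported fits carried no block, though on array B samples of 1 number deviated together more often. The array B counts therefore depend on this choice. With the replicate number as a block, array A counts did not move by over 1.5 times. Array B gave 3 at day 35 (Cd40 with adjusted p = 0.019, Pou2f2 and Bcl11a), all lower, and 1 late against early (Cd40, 0.0327). Of all tested probe sets of array B 1327 and 483 were then called.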
